A study of Mus musculus with 6 samples.

Results

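The axon guidance ligands and receptors measured here were the semaphorins of classes 3 to 7, the plexins, both neuropilins, the slits, the robos, the netrins, the netrin receptors DCC and UNC5, the ephrins and the Eph receptors. Members were taken by gene symbol, not by their values, and 69 of the 56980 Ensembl gene identifiers in the count table belonged to them, 35 ligands and 34 receptors. RNA came from mouse lung tumours labelled small cell lung cancer, a neuroendocrine carcinoma, taken when about 4 months had passed since virus injection. By their sample titles all 6 tumours carried the background labelled QKO, which the labels do not spell out: 3 were controls and 3 were Keap1 knockout tumours. The column names use QKO for the controls alone and KP for the knockouts. KEAP1 directs the transcription factor NRF2 to degradation, and the series asked how its loss alters gene expression. The sources used here do not say how Keap1 was inactivated, in which cells, at what age of the mice, or whether each sample is a different animal. The p-values therefore cover only the spread among these 6 samples, which may be technical.

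Axon guidance cues steer growing nerve fibres, and the same proteins act between cells of many other tissues. Semaphorins signal through plexins, and most secreted class 3 semaphorins also need a neuropilin as co-receptor. Slits repel cells through robos, netrins attract through DCC and repel through UNC5 receptors, and ephrins are bound to the membrane and signal through Eph receptor tyrosine kinases on the neighbouring cell. In the lung, robo signalling is known to be needed for neuroendocrine cells to gather into their clusters.

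Library totals ran from 18731515 to 23759892 counts, and 17901 genes had enough counts to be tested. Levels are given as CPM, counts scaled to a common total with totals adjusted between libraries, and only comparisons between genes use CPM per kb of exon. Keap1 itself stood at 78.4, 74.5 and 58.7 CPM (controls 1 to 3) and 67.5, 93.0 and 79.9 CPM (knockouts 1 to 3), with a log2 fold change of 0.18 ± 0.20 (SE), so the level of its RNA did not separate the groups and does not check the labels. The 3 control libraries differed from each other. The summed CPM of 8 neuroendocrine markers was 114, 73.0 and 5146 across controls 1 to 3 and 214, 63.8 and 54.5 across knockouts 1 to 3, so these defining markers of the labelled cancer were high in control 3 alone. Insm1 had no read in knockouts 2 and 3, and in knockout 1 Calca made up 116 of the 214 CPM. The 6 basal or squamous markers summed to 6868, 8.92 and 2.39 CPM in the controls and 61.9, 5.17 and 1.10 in the knockouts. The 6 fibroblast or mesenchymal markers summed to 432, 33869 and 4938 and 1018, 575 and 375, with control 2 the highest library. Col1a1 and Col1a2 held 20424 and 12074 CPM of the control 2 sum. Lum and Pdgfra were also highest in control 2, but Col3a1 and Dcn were highest in control 3, at 2291 and 238 CPM. In bulk tumours, fewer cells of a type and less RNA per cell cannot be told apart.

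All 69 members had at least 1 read, 63 passed the filter and 6 (Dcc, Unc5d, Epha5, Epha6, Epha7 and Epha10) did not. Of the 63 tested members, 1 rose in the knockout tumours and 5 fell at an adjusted p below 0.05 by the quasi-likelihood test of edgeR, the test behind every p-value marked edgeR: Sema4g rose, and Sema4c, Plxna1, Plxnc1, Robo1 and Robo2 fell. These 6 were 9.52% of the members tested, where 4.31% of all genes tested passed. The 1 that rose was 1.59% of the members, where 2.42% of all genes rose, and the 5 that fell were 7.94%, where 1.89% of all genes fell. Log2 fold changes were below 0 in 52 of the 63 members, or 82.5%, and in 53.9% of all genes tested, and their median was -1.24 in the members and -0.08 over all genes. In 18 members every knockout library lay below every control library, 28.6% of the members where the share over all genes was 19.1%, and in 4 every knockout library lay above, 6.35% where it was 21.5%. By unadjusted p below 0.05, edgeR gave 29 members, or 46.0%, where it gave 30.7% of all genes. The number of calls depended on single libraries: 8 members were called without control 1, 2 without control 2 (Sema4c and Robo1) and 19 without control 3. These were 12.7%, 3.08% and 29.7% of the members tested, where 3.91%, 1.42% and 17.2% of all genes were called in the same fits. Without knockouts 1, 2 and 3, edgeR called 0, 0 and 0 members and 2, 0 and 0 of all genes. In those fits 20, 22 and 20 members had an unadjusted p below 0.05, or 30.8%, 34.4% and 30.8%, where 19.9%, 17.7% and 17.5% of all genes did. DESeq2 called 27 members, 42.9% of those tested where 25.9% of all genes were called, 5 of them higher and 22 lower where it called 11.5% and 14.4% of all genes, and limma voom called 5, or 7.94% where 5.96% of all genes were called. Plxna2 was added to the 6 by a filter of 1 CPM in 3 samples (11.7% of members and 6.03% of all genes) and by limma voom with a spread per genotype (11.1% and 4.77%). In the authors' deposited table, 28 of 63 members listed had an adjusted p below 0.05, or 44.4% where 17.8% of all genes listed had one, and 23 of them were lower where 10.7% of all genes listed were. Of those 63, 60 were also tested here: the table lists Dcc, Epha7 and Epha10, which were not, and Slit1, Slit3 and Epha8 were tested here alone.

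**Figure D1:**
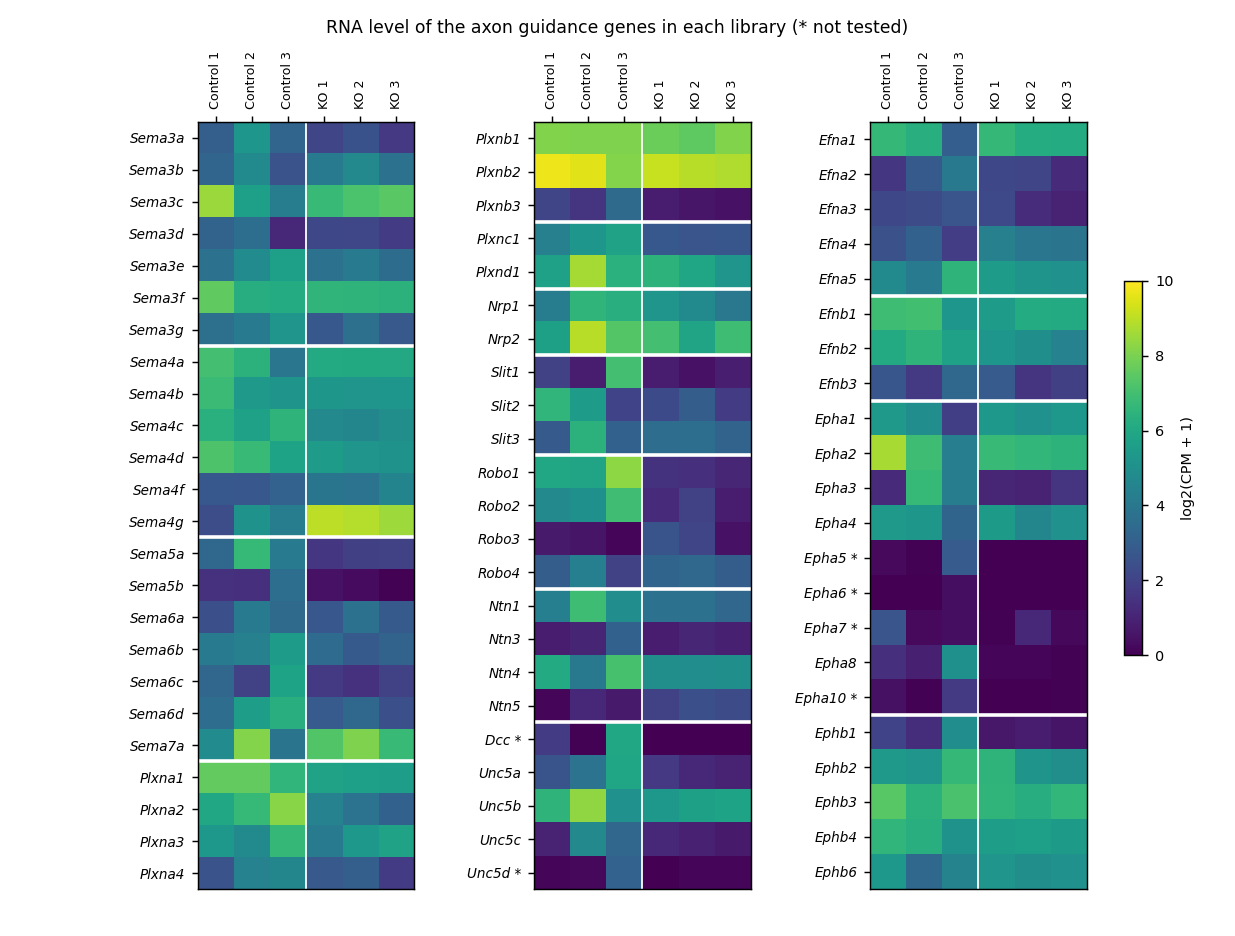
Level of each of the 69 genes (rows, grouped by family between white lines) in each of the 6 libraries (columns) as log2(CPM + 1), with KO for Keap1 knockout and an asterisk for the 6 genes not tested. Sema4g is brightest in the 3 knockout columns, while Robo1 and Robo2 are darker there than in every control.

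**Figure D2:**
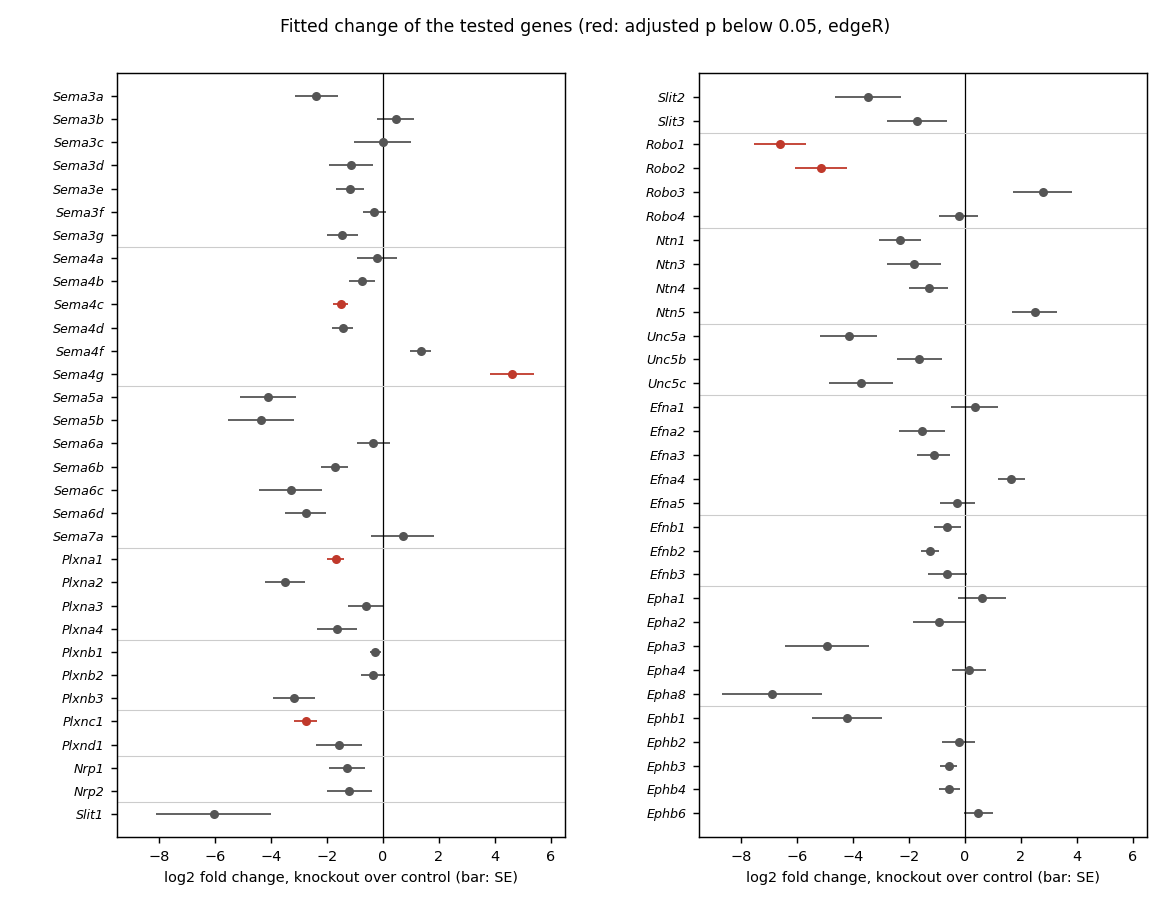
Log2 fold change of knockout over control for the 63 tested genes, with the standard error as a bar and the 6 genes at an adjusted p below 0.05 in red. Points lie left of 0 for 52 of the 63 genes.

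The class 4 semaphorins, membrane-spanning cues, held both a gene that rose and a gene that fell. Of 6 members tested, Sema4g rose, Sema4c fell and 4 did not pass. Sema4g (ENSMUSG00000025207) stood at 4.16, 33.4 and 17.7 CPM (controls 1 to 3) and 506, 474 and 370.2 CPM (knockouts 1 to 3). Every knockout library lay far above every control, with the lowest knockout at 370.2 and the highest control at 33.4 CPM. Means were 18.4 ± 14.7 and 450.0 ± 71.0 CPM (SD, n = 3 each), a 24.4-fold fitted difference and a log2 fold change of 4.61 ± 0.78 (SE), with adjusted p = 0.0412 (edgeR). The call ended without control 2, with adjusted p = 0.0537 (edgeR), and without knockouts 1, 2 and 3, with 0.156, 0.217 and 0.209, while the log2 fold change stayed between 4.14 and 5.40 without any 1 library. Per kb of exon, Sema4g made up 0.590%, 7.28% and 5.23% of the summed class 4 level across the controls and 63.8%, 64.0% and 56.3% across the knockouts. The class as a whole summed to 81.5, 53.1 and 39.0 CPM per kb in the controls and 91.6, 85.4 and 75.9 in the knockouts, so the groups differed in which member was most abundant, while the lowest knockout sum lay below the highest control sum. The RefSeq promoter of Sema4g (chr19:44989094-44989393, plus strand, GRCm38.p6, from 250 bases before the start to 50 after it) is shown because Sema4g was the 1 member that rose. It had a GC content of 73.3%, and the capitals mark its single CAGCTG, the palindromic E-box that basic helix-loop-helix factors bind.
Sema4g promoter: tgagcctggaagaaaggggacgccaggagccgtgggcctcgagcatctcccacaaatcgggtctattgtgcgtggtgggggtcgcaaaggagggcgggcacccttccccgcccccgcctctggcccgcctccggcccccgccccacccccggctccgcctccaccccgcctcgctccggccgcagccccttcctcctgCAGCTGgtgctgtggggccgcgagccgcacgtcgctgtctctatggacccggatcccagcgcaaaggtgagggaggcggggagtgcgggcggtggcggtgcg

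Sema4c (ENSMUSG00000026121), whose protein is a ligand of plexin B2, stood at 80.2, 51.5 and 90.2 CPM (controls 1 to 3) and 25.4, 23.2 and 29.5 CPM (knockouts 1 to 3). The groups did not overlap. Means were 74.0 ± 20.1 and 26.0 ± 3.19 CPM (SD, n = 3 each), and Sema4c fell by 1.51 on the log2 scale (SE 0.26), with adjusted p = 0.0416 (edgeR). Without control 1 the edgeR adjusted p was 0.0624, and without knockouts 1, 2 and 3 it was 0.169, 0.230 and 0.211. Sema4c shares 334 exonic bases with a gene on the opposite strand in the GENCODE M21 annotation, D430040D24Rik, whose own level was 5.63 CPM at most. Sema4d, the plexin B1 ligand known from immune cells, stood at 145, 108 and 54.4 CPM (controls 1 to 3) and 44.2, 35.9 and 33.3 CPM (knockouts 1 to 3). Its groups did not overlap either, but it did not pass, with a log2 fold change of -1.44 ± 0.38 (SE), adjusted p = 0.0760 (edgeR), and was called without control 3 (0.0135). The 6 T or B cell markers summed to 4.67, 9.66 and 3.58 CPM in the controls and 10.4, 8.97 and 5.63 in the knockouts. The 6 macrophage markers summed to 335, 769.6 and 252 CPM in the controls and 195, 153 and 157 in the knockouts. The part of these cells in the level of Sema4d was not tested. Sema4f had the opposite direction, at 5.68, 5.55 and 7.87 CPM (controls 1 to 3) and 13.9, 13.0 and 21.6 CPM (knockouts 1 to 3), with every knockout above every control, a log2 fold change of 1.35 ± 0.36 (SE), adjusted p = 0.0765 (edgeR), and it was called without control 3 (0.0363). Sema4a and Sema4b had log2 fold changes of -0.21 and -0.75, and their groups overlapped.

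**Figure D3:**
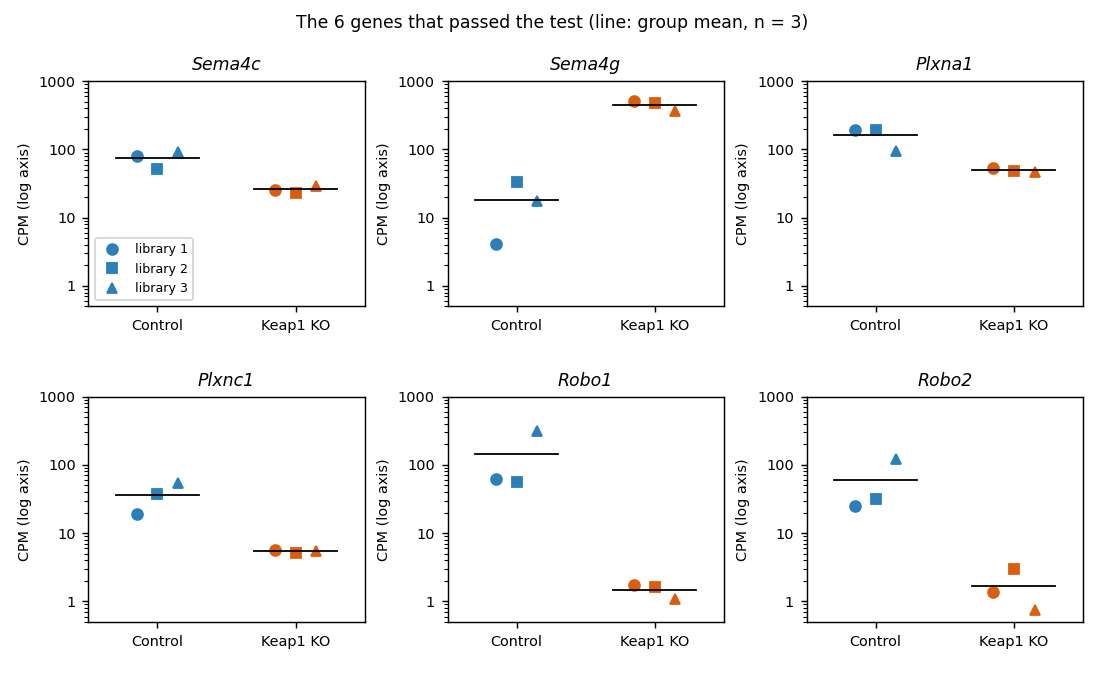
CPM on a log axis of the 6 genes that passed the edgeR test, with 1 point per library (shape gives the library number) and a line at the group mean, n = 3 each. Sema4g stands at 370.2 CPM or more in the knockouts and 33.4 CPM or less in the controls, and the other 5 genes lie lower in every knockout library than in every control.

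None of the 7 class 3 semaphorins, the secreted cues, passed the edgeR test, and 6 of the 7 had a log2 fold change below 0. Per kb of exon, Sema3c and Sema3f together made up most of the class level in every knockout. Sema3c, a neuropilin ligand, stood at 358, 49.5 and 17.9 CPM (controls 1 to 3) and 108, 142 and 172 CPM (knockouts 1 to 3). Control 1 lay above and controls 2 and 3 below all 3 knockouts, so that the fitted log2 fold change was -0.01 and became 2.07 without control 1. Sema3a, the cue that collapses sensory growth cones, stood at 7.06, 37.5 and 8.46 CPM (controls 1 to 3) and 3.31, 4.76 and 2.15 CPM (knockouts 1 to 3). Every knockout lay below every control, and the edgeR adjusted p was 0.113, with a log2 fold change of -2.37 ± 0.78 (SE), which was -1.16 without control 2. Sema3f, a neuropilin 2 ligand, was steady among the knockouts, at 91.2, 90.5 and 84.5 CPM, and ran from 70.9 to 186 CPM in the controls. Sema3b, Sema3d, Sema3e and Sema3g had log2 fold changes of 0.47, -1.13, -1.17 and -1.45, all with overlapping groups.

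Among the 7 semaphorins of classes 5 to 7, 6 had negative log2 fold changes, in 4 of them every knockout lay below every control, and none passed. Sema5a, a membrane-spanning semaphorin with thrombospondin repeats, stood at 9.34, 102 and 16.9 CPM (controls 1 to 3) and 2.00, 2.70 and 2.81 CPM (knockouts 1 to 3). Control 2 held 79.6% of the summed control level. Its log2 fold change was -4.09 ± 1.00 (SE), with adjusted p = 0.0689 (edgeR), and it was -2.36 without control 2 and called without control 3 (0.0378). The related Sema5b was low throughout, at 1.67, 1.59 and 11.2 CPM (controls 1 to 3) and 0.420, 0.229 and 0.0440 CPM (knockouts 1 to 3), with adjusted p = 0.0806 (edgeR) and a log2 fold change of -4.36 ± 1.18 (SE), which was -2.80 without control 3. Sema6d, a plexin A1 ligand, stood at 10.9, 47.3 and 78.6 CPM (controls 1 to 3) and 6.29, 9.43 and 4.44 CPM (knockouts 1 to 3), and Sema6b at 16.6, 19.4 and 44.9 CPM (controls 1 to 3) and 10.2, 6.18 and 8.18 CPM (knockouts 1 to 3). Both had groups that did not overlap, with log2 fold changes of -2.76 ± 0.74 and -1.72 ± 0.48 (SE) and adjusted p values of 0.0797 and 0.0825 (edgeR). Sema6d was called without control 1 (0.0411), and Sema6b had a log2 fold change of -1.13 without control 3. Sema6c had a log2 fold change of -3.29 and Sema6a one of -0.34, and in both the groups overlapped. Sema7a, the class member held to the membrane by a lipid anchor, had the highest level per length of these 7 in the knockouts, at 27.3, 285 and 13.3 CPM (controls 1 to 3) and 155, 267 and 109.7 CPM (knockouts 1 to 3). Control 2 lay above all 3 knockouts and controls 1 and 3 below them, and its log2 fold change was 0.71 ± 1.13 (SE), which was 3.15 without control 2, 0.26 without control 1 and 0.18 without control 3.

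The plexins are the semaphorin receptors, and all 9 had a log2 fold change below 0, with 2 that fell and 7 that did not pass. Plxna1 (plexin A1, ENSMUSG00000030084), which pairs with neuropilins to receive class 3 semaphorins, stood at 194, 190.3 and 94.6 CPM (controls 1 to 3) and 53.8, 48.8 and 46.9 CPM (knockouts 1 to 3). Controls 1 and 2 were about level, control 3 was lower, and all knockouts lay below control 3. Means were 159.8 ± 56.5 and 49.8 ± 3.55 CPM (SD, n = 3 each), and Plxna1 fell by 1.68 on the log2 scale (SE 0.31), with adjusted p = 0.0453 (edgeR). The call ended without control 1 (0.0633 as adjusted p by the edgeR test), without control 2 (0.0762) and without knockouts 1, 2 and 3 (0.179, 0.234 and 0.226). An antisense gene, Gm26811, shares 970 exonic bases with Plxna1 and stood at 1.42 CPM at most. Plxna2 stood at 63.5, 103 and 298 CPM (controls 1 to 3) and 20.6, 12.9 and 7.52 CPM (knockouts 1 to 3), and its groups did not overlap. Its log2 fold change was -3.50 ± 0.72 (SE) and its edgeR adjusted p 0.0530, just above the threshold of 0.05. It was called without control 1 (0.0485) and without control 3 (0.0261, at a log2 fold change of -2.61), with a filter of 1 CPM in 3 samples (0.0492), by limma voom with a spread per genotype (0.0400) and by DESeq2 (1.7e-05). Plxna3 and Plxna4 had log2 fold changes of -0.61 and -1.64, with overlapping groups. Per kb of exon the 4 A plexins together summed to 30.5, 31.8 and 42.1 CPM in the controls and to 9.55, 11.6 and 12.5 CPM in the knockouts, groups that did not overlap. Every knockout sum also lay below every control sum for the slits, robos, netrins and netrin receptors. Lowest control and highest knockout sums were 5.21 and 2.19 (slits), 6.54 and 2.53 (robos), 21.5 and 11.8 (netrins), 15.9 and 9.003 (netrin receptors). In the remaining families the sums of the groups overlapped.

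Plxnc1 (plexin C1, ENSMUSG00000074785), the receptor of Sema7a, stood at 19.3, 37.1 and 53.9 CPM (controls 1 to 3) and 5.69, 5.17 and 5.45 CPM (knockouts 1 to 3). The 3 knockout libraries lay close together, and the lowest control was 19.3 CPM. Means were 36.8 ± 17.3 and 5.44 ± 0.258 CPM (SD, n = 3 each), and Plxnc1 fell by 2.76 on the log2 scale (SE 0.42), with adjusted p = 0.0370 (edgeR). Without control 2 the edgeR adjusted p was 0.0639, and without knockouts 1, 2 and 3 it was 0.156, 0.220 and 0.210. Its ligand gene Sema7a did not pass, with adjusted p = 0.697 (edgeR). Plxnd1 (plexin D1), a receptor of endothelial cells, stood at 52.3, 396 and 82.0 CPM (controls 1 to 3) and 87.8, 57.8 and 36.1 CPM (knockouts 1 to 3), with control 2 the only control above all knockouts and a log2 fold change of -1.55 ± 0.82 (SE), which was -0.12 without control 2. The 8 endothelial markers summed to 257, 547 and 182 CPM in the controls and 243, 306 and 199 in the knockouts, with control 2 highest there too, and their part in this was not tested. Of the B plexins, receptors of class 4 semaphorins, Plxnb2 had the highest mean level per length of all 69 members in both groups. Its means were 82.0 and 64.7 CPM per kb in controls and knockouts. On the CPM scale it stood at 869, 746 and 283 CPM (controls 1 to 3) and 571, 483 and 445 CPM (knockouts 1 to 3), with a log2 fold change of -0.34 ± 0.43 (SE). Control 3 lay below all knockouts. Plxnb1 was nearly constant in the controls, at 276, 269 and 269 CPM, and had a log2 fold change of -0.27 ± 0.20 (SE). Plxnb3 was low, at 3.30, 1.93 and 9.86 CPM (controls 1 to 3) and 0.746, 0.504 and 0.396 CPM (knockouts 1 to 3), without overlap, with a log2 fold change of -3.18 ± 0.75 (SE), adjusted p = 0.0654 (edgeR). It was called without control 3, at -2.24 with adjusted p = 0.0380 (edgeR). Neither neuropilin passed. Nrp1, the co-receptor of Sema3a, stood at 17.9, 92.6 and 78.1 CPM (controls 1 to 3) and 36.4, 26.3 and 14.9 CPM (knockouts 1 to 3), with control 1 below knockouts 1 and 2, and had a log2 fold change of -1.28 ± 0.65 (SE). Nrp2 stood at 50.3, 485 and 158 CPM (controls 1 to 3) and 129, 56.3 and 119.5 CPM (knockouts 1 to 3), with control 2 the highest library, and without control 2 its log2 fold change was -0.01 in place of -1.19.

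The robos, receptors of the slits, held the 2 members that fell by the most among the 5 that passed. Of 4 robos tested, Robo1 and Robo2 fell and Robo3 and Robo4 did not pass. Robo1 (ENSMUSG00000022883) stood at 61.0, 55.5 and 313 CPM (controls 1 to 3) and 1.73, 1.60 and 1.10 CPM (knockouts 1 to 3). Controls 1 and 2 were close to each other, control 3 held 72.9% of the summed control level, and no knockout reached 2 CPM. Means were 143 ± 147 and 1.48 ± 0.332 CPM (SD, n = 3 each), and Robo1 fell by 6.60 on the log2 scale (SE 0.92), with adjusted p = 0.0337 (edgeR). Without control 3 it fell by 5.30 on the log2 scale, with adjusted p = 0.00377 (edgeR). The calls of both genes ended without knockouts 1, 2 and 3, with adjusted p values of 0.142, 0.217 and 0.209 for Robo1 and 0.1797, 0.217 and 0.215 for Robo2 (edgeR), and that of Robo2 also without control 2 (0.0639). Without control 3, Robo2 fell by 4.05 on the log2 scale, with adjusted p = 0.0196 (edgeR). Robo2 (ENSMUSG00000052516) stood at 24.8, 31.6 and 122 CPM (controls 1 to 3) and 1.35, 2.98 and 0.747 CPM (knockouts 1 to 3). Its groups did not overlap, the lowest control being 24.8 CPM and the highest knockout 2.98 CPM. Robo2 fell by 5.13 on the log2 scale (SE 0.92), from 59.5 ± 54.4 to 1.69 ± 1.15 CPM (SD, n = 3 each), with adjusted p = 0.0436 (edgeR). In RefSeq GRCm38.p6 both robo genes lie on chromosome 16. The promoters of Robo1 (chr16:72662899-72663198, plus strand) and of Plxnc1 (chr10:94944796-94945095, minus strand) are shown because these genes had the smallest adjusted p among the members that fell and 1 RefSeq entry each. Capitals mark a match to 1 of 2 loose core patterns searched for the antioxidant response element, to which NRF2 binds with small MAF proteins: TGA, any 4 bases, then GCA. The Robo1 promoter held no match to the other pattern, TGACNNNGC, and the Plxnc1 promoter held no match to any of the 3 patterns searched.
Robo1 promoter: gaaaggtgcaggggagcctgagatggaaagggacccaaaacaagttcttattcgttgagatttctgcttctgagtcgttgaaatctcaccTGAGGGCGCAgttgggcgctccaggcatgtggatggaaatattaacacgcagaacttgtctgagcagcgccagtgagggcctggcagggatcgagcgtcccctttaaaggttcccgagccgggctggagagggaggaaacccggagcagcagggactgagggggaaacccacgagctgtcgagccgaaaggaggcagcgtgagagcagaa
Plxnc1 promoter: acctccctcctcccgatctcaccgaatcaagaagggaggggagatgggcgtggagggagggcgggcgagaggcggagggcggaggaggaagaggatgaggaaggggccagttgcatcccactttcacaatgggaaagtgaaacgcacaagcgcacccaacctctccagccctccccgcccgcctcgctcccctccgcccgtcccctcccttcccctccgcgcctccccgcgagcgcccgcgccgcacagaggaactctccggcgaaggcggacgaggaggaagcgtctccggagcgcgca

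Robo3, a divergent robo of commissural neurons, had the opposite direction at low levels, 0.660, 0.495 and 0.0996 CPM (controls 1 to 3) and 5.08, 3.25 and 0.396 CPM (knockouts 1 to 3), with overlap at knockout 3. Its log2 fold change was 2.78 ± 1.07 (SE) and its edgeR adjusted p 0.146. Robo4, the endothelial robo, stood at 6.80, 18.9 and 2.89 CPM (controls 1 to 3) and 8.25, 9.48 and 6.77 CPM (knockouts 1 to 3), with a log2 fold change of -0.22 ± 0.69 (SE). Per kb of exon it was the largest part of the robo sum in the knockouts, 62.7%, 70.5% and 88.4%, where Robo1 had been the largest in controls 1 and 3, with 56.5%, 37.9% and 71.0% in controls 1 to 3. The slits, secreted ligands of the robos, each had a different control library on top and none passed. Slit1 stood at 2.79, 0.694 and 127 CPM (controls 1 to 3) and 0.746, 0.412 and 0.791 CPM (knockouts 1 to 3), so that control 3 held 97.3% of the summed control level. Slit2 stood at 94.6, 44.0 and 2.99 CPM (controls 1 to 3) and 3.78, 6.82 and 2.37 CPM (knockouts 1 to 3), with controls 1 and 2 above all knockouts and control 3 among them. Slit3 stood at 6.19, 85.5 and 7.52 CPM (controls 1 to 3) and 11.0, 11.2 and 8.09 CPM (knockouts 1 to 3), with control 2 alone above the knockouts. The log2 fold changes were -6.05 ± 2.07, -3.45 ± 1.17 and -1.71 ± 1.06 (SE), with adjusted p values of 0.1204, 0.119 and 0.314 (edgeR). Slit2 was called without control 3, with adjusted p = 0.0182 (edgeR), and had a log2 fold change of -2.43 without control 1.

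**Figure D4:**
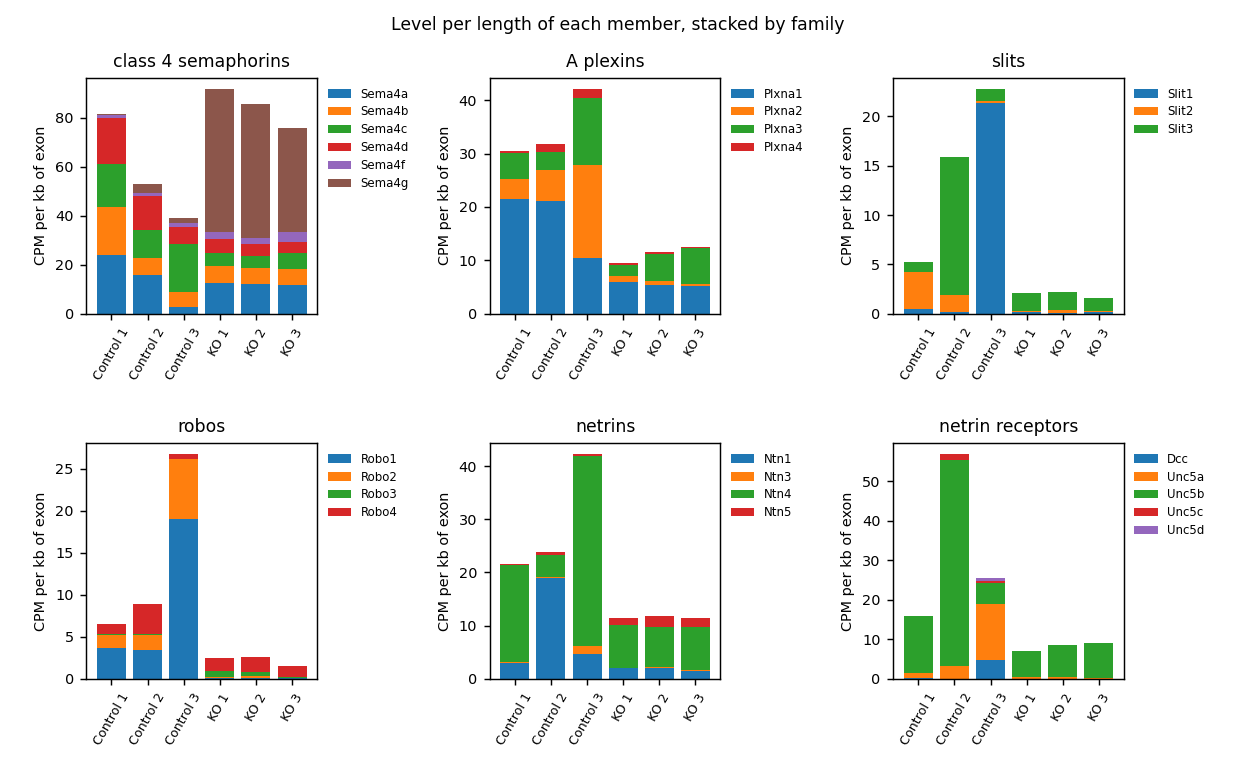
Level per length (CPM per kb of exon) of the members of 6 families, stacked, in each of the 6 libraries (KO for Keap1 knockout). Sema4g makes up 56.3% to 64.0% of the class 4 semaphorin bar in the knockouts, and a different slit dominates each control bar.

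None of the 4 netrins or of the 3 netrin receptors tested passed the edgeR test. Ntn1 (netrin-1) stood at 18.7, 118 and 28.7 CPM (controls 1 to 3) and 12.1, 12.2 and 8.79 CPM (knockouts 1 to 3), with control 2 highest and no overlap between groups, a log2 fold change of -2.32 ± 0.74 (SE), adjusted p = 0.105 (edgeR). Without control 2 its log2 fold change was -1.08. Ntn4, a netrin of basement membranes, was the netrin with the highest mean level per length in both groups, at 68.6, 15.6 and 134 CPM (controls 1 to 3) and 30.1, 28.6 and 30.5 CPM (knockouts 1 to 3), and the knockouts lay between control 2 and control 1. Ntn5 had higher values in every knockout than in any control, 0.102, 1.19 and 0.647 CPM (controls 1 to 3) and 2.80, 4.44 and 3.82 CPM (knockouts 1 to 3), with a log2 fold change of 2.50 ± 0.80 (SE), adjusted p = 0.107 (edgeR). It shares 519 exonic bases with Sec1 on the opposite strand, a gene at 1.71 CPM at most, so that part of its reads is uncertain. Ntn3 had a log2 fold change of -1.82 and overlapping groups, and it shares 89 exonic bases with Tbc1d24 on the same strand, which stood between 11.1 and 48.4 CPM. Of the receptors, Unc5a stood at 5.08, 13.2 and 59.3 CPM (controls 1 to 3) and 2.19, 1.24 and 0.923 CPM (knockouts 1 to 3), without overlap, with a log2 fold change of -4.15 ± 1.03 (SE), adjusted p = 0.0703 (edgeR). It was called without control 3, at -2.65 with adjusted p = 0.0393 (edgeR). Unc5a shares 34 exonic bases with Hk3 on the opposite strand, which stood at 8.78 CPM at most. Unc5b, a receptor also known from blood vessels, stood at 90.5, 327 and 32.3 CPM (controls 1 to 3) and 39.8, 50.7 and 54.7 CPM (knockouts 1 to 3), with a log2 fold change of -1.63 that was -0.33 without control 2, and it was called without control 3 (0.0496). Unc5c had a log2 fold change of -3.70. Dcc, the netrin receptor of attraction, had 48, 1 and 1262 reads in controls 1 to 3 and none in any knockout. Pooled over each group, Dcc was at least 481-fold lower in the knockouts against a floor of 3 reads over the group, a bound that covers counting error only and rests on control 3, which held 96.2% of the summed control level. The filter left Dcc untested, and without the filter its edgeR adjusted p was 0.244. Unc5d had 2, 3 and 156 reads in the controls and 0, 3 and 2 in the knockouts.

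None of the 8 ephrins, membrane-bound ligands of the Eph receptors, passed the edgeR test, and in 6 of them the groups overlapped. Efna1, the usual ligand of EphA2, stood at 101, 79.3 and 6.92 CPM (controls 1 to 3) and 99.1, 71.2 and 70.4 CPM (knockouts 1 to 3), with control 3 far below the other 5 libraries. Its log2 fold change was 0.36, and without control 3 it was -0.17. Efna4 had higher values in every knockout, 4.62, 7.58 and 2.49 CPM (controls 1 to 3) and 19.3, 14.1 and 13.5 CPM (knockouts 1 to 3), with a log2 fold change of 1.67 ± 0.48 (SE), adjusted p = 0.0876 (edgeR). Efnb2, the ephrin of arterial endothelium, was lower in every knockout, at 68.2, 88.5 and 51.6 CPM (controls 1 to 3) and 37.2, 30.4 and 20.6 CPM (knockouts 1 to 3). Its log2 fold change was -1.24 ± 0.31 (SE) and its edgeR adjusted p 0.0711, and it passed without control 3 (0.0318). Efnb1 stood at 119, 125 and 36.8 CPM (controls 1 to 3) and 44.4, 69.6 and 67.4 CPM (knockouts 1 to 3), with control 3 below all knockouts and controls 1 and 2 above them, and it was called without control 3 (0.0381). The remaining ephrins Efna2, Efna3, Efna5 and Efnb3 had log2 fold changes of -1.53, -1.10, -0.26 and -0.62.

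The Eph receptors are receptor tyrosine kinases, and none of the 10 tested passed. Epha2, often high in epithelial cancers, stood at 407, 118 and 18.3 CPM (controls 1 to 3) and 105, 98.3 and 86.4 CPM (knockouts 1 to 3). Control 1 was highest, control 3 lowest, and the knockouts lay close together between control 3 and control 2, so that the log2 fold change of -0.91 became 0.52 without control 1. Epha8 had the log2 fold change farthest from 0 of the 63 tested members, -6.88 ± 1.79 (SE), with adjusted p = 0.0760 (edgeR). That place rested on control 3, without which the log2 fold change was -3.67, with adjusted p = 0.0271 (edgeR). It stood at 1.62, 0.842 and 31.8 CPM (controls 1 to 3) and 0.0933, 0.137 and 0.0440 CPM (knockouts 1 to 3), and control 3 held 92.8% of the summed control level. Epha3 stood at 1.32, 104 and 17.2 CPM (controls 1 to 3) and 1.12, 1.007 and 1.89 CPM (knockouts 1 to 3), high in control 2 and at knockout level in control 1, with a log2 fold change of -4.92 ± 1.51 (SE), adjusted p = 0.0981 (edgeR). Epha3 had a log2 fold change of -2.75 without control 2 and was called without control 1, at -5.48 with adjusted p = 0.0459 (edgeR). Ephb1, a receptor of B ephrins, was lower in every knockout, at 3.05, 1.49 and 28.7 CPM (controls 1 to 3) and 0.560, 0.733 and 0.484 CPM (knockouts 1 to 3), with a log2 fold change of -4.21 ± 1.25 (SE), adjusted p = 0.0934 (edgeR). Without control 3 its log2 fold change was -1.92. Ephb3, known from the intestinal crypt, differed little in size, at 170.2, 85.0 and 141 CPM (controls 1 to 3) and 92.9, 73.9 and 98.8 CPM (knockouts 1 to 3), with a log2 fold change of -0.58 ± 0.29 (SE). Epha1 and Epha4 had log2 fold changes of 0.61 and 0.16, and Ephb2, Ephb4 and Ephb6 had -0.22, -0.55 and 0.49, all with overlapping groups. Epha1 shares 236 exonic bases with Zyx on the opposite strand, which stood between 100.04 and 329 CPM, so that part of its counts is uncertain.

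The 4 Eph receptors that the filter removed had at most 25 reads in any knockout. Epha5 had 4, 1 and 125 reads in controls 1 to 3 and none in the knockouts, at least 47.7-fold lower there against a floor of 3 reads over the group. That bound rests on control 3, which held 96.1% of the summed control level. Epha10 had 7, 1 and 45 reads in the controls and 1 read in knockout 3, a control-to-knockout ratio of 58.4 (95% counting interval 10.03 to 2348), and control 3 held 84.7% of its summed control level. Epha6 had 6 reads, all in control 3, and Epha7 had 104, 4 and 6 reads in the controls and 1, 25 and 4 in the knockouts. With no filter, the adjusted p of Epha5, Epha10, Epha6 and Epha7 were 0.249, 0.149, 0.395 and 0.479 by the edgeR test. In the authors' deposited table Dcc had a log2 fold change of -11.35 with an adjusted p of 0.00658, and Epha10 one of -5.76 with 0.0229.

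The typical member varied more among the libraries of either group than the typical gene. The median SD of log2 CPM was 1.30 in the controls and 0.351 in the knockouts for the 63 tested members, where it was 0.578 and 0.222 over all genes tested. Control 3 was the highest control for 26 of the 63, control 2 for 20 and control 1 for 17, or 41.3%, 31.7% and 27% where the shares over all genes were 39.3%, 28.0% and 32.7%. In 12 members, 19% of those tested where 8.09% of all genes did so, 1 control stood more than 5-fold above the next, a threshold chosen after the values were seen. Control 3 stood so in Slit1, Robo1, Epha8, Ephb1, Sema5b, Sema6c and Ntn3. The summed neuroendocrine markers also had their highest value there, 5146 CPM. Control 2 stood so in Sema5a, Sema7a, Slit3 and Epha3, and it was the library with the highest summed fibroblast markers, at 33869 CPM, pericyte markers, at 811 CPM, and macrophage markers, at 769.6 CPM. Control 1 stood so in Sema3c alone, and it had the highest summed basal or squamous markers, at 6868 CPM. Pericyte markers summed to 241, 811 and 346 CPM across the controls and 207, 90.3 and 104 across the knockouts, and macrophage markers to 335, 769.6 and 252 and 195, 153 and 157. Not every marker of the fibroblast, pericyte and macrophage lists followed its sum. Among the controls, Rgs5, Col3a1 and Dcn were highest in control 3 and Notch3 and Cd68 in control 1, and the other markers of these lists in control 2. Club or alveolar markers, 5 in number, summed to 2071, 2594 and 269.5 CPM across the controls and 3139, 7337 and 6860.2 across the knockouts. Every knockout sum lay above every control sum, and Scgb1a1 alone gave 1574, 3501 and 5331 CPM of the sums in knockouts 1 to 3. Singly, Scgb1a1 and Sftpb were higher in every knockout, while Sftpc, Ager and Cyp2f2 had overlapping groups. None of those 5 markers passed the edgeR test, with 0 at an unadjusted p below 0.05. The 3 tuft cell markers summed to 29.0, 28.6 and 10.2 and 2.10, 1.60 and 2.46 CPM, and 1 of them, Avil, fell. Avil alone gave 28.4 and 27.2 CPM of the sums in controls 1 and 2 and nearly all of that in control 3. Pou2f3 and Trpm5 stayed below 1 CPM in every library and were not tested, so the lower tuft sums were those of a single gene. Of the 6 fibroblast and of the 6 macrophage markers, 5 each had an unadjusted p below 0.05 and none passed the edgeR test. Of the 6 neuron or glia markers, which summed to 141, 102 and 195 and 84.9, 76.2 and 72.4 CPM, none passed the edgeR test, and 3 had an unadjusted p below 0.05. The part of these cell types in the members' levels was not tested.

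**Figure D5:**
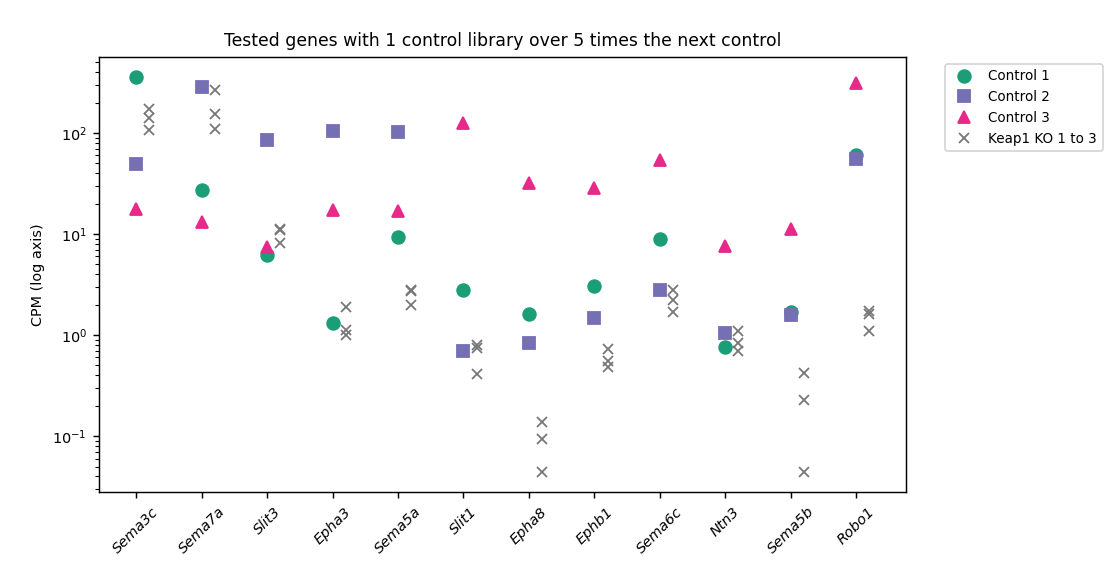
CPM on a log axis of the 12 genes with 1 control more than 5-fold above the next control, with a coloured shape for each control library and grey crosses for the 3 knockouts. Control 3 is the high library in 7 of the 12 genes, control 2 in 4 and control 1 in 1.

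The other genes of axon guidance were listed by role, 71 in all, and 68 were tested. None rose and 3 fell by the edgeR test at an adjusted p below 0.05, or 4.41% where 1.89% of all genes fell, and 27 had an unadjusted p below 0.05, or 39.7% where 30.7% of all genes did. The median log2 fold change was -0.95 in the 23 co-receptors and other cues tested and -0.56 in the 45 cytoplasmic effectors tested. Cdon, a hedgehog co-receptor that also associates with the netrin receptor neogenin, stood at 34.3, 32.8 and 34.5 CPM (controls 1 to 3) and 15.6, 14.1 and 16.4 CPM (knockouts 1 to 3). It was the steadiest of the 3 across the controls and fell by 1.14 on the log2 scale (SE 0.20), with adjusted p = 0.0416 (edgeR). Trio, a guanine nucleotide exchange factor acting downstream of netrin receptors, stood at 114, 133 and 239 CPM (controls 1 to 3) and 45.3, 41.4 and 36.1 CPM (knockouts 1 to 3) and fell by 1.98 (SE 0.32), with adjusted p = 0.0391 (edgeR). Mical3, of the MICAL family that oxidises actin downstream of plexins, stood at 89.4, 71.4 and 83.9 CPM (controls 1 to 3) and 22.6, 23.8 and 20.04 CPM (knockouts 1 to 3) and fell by 1.88 (SE 0.18), with adjusted p = 0.0195 (edgeR). In each of the 3 genes every knockout lay below every control. No call of these genes remained without knockout 1, 2 or 3, where 29.6%, 26.8% and 29.6% of the list had an unadjusted p below 0.05 by edgeR and 19.9%, 17.7% and 17.5% of all genes did.

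Promoters were compared as a description of sequence. RefSeq promoters of GRCm38.p6 were found for 59 of the 69 members, 75 windows of 300 bases in all. The first pattern of the antioxidant response element core, TGA and GCA with any 4 bases between, read on both strands, was in 10.7% of the members' windows and 13.0% of all 32851 windows, and TGACNNNGC, an overlapping pattern of the same element, was in 12.0% and 12.4%. CAGCTG was in 16.0% and 16.3%. Of the 6 genes that passed, 5 had windows in the table: that of Robo1 held the first of these patterns and not TGACNNNGC, those of Sema4g and of 1 of 3 Robo2 starts held CAGCTG, and those of Sema4c and Plxnc1 held none of the 3 patterns. The median GC content was 64.3% in the members' windows and 52.7% in all.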

How the data were processed

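RNA sequencing of 6 mouse lung tumours was described. The deposited table gives each Ensembl gene a raw read count per sample, in whole numbers and without normalization. The submitters' processing notes name the aligner STAR, DESeq2 and the mm39 build, and how the reads were counted (tool, annotation, strand, multiple matches) is not given in the sources used here. The authors' deposited table of knockout against control gives a log2 fold change, its standard error, a mean normalized signal, a Wald score and p-values per gene, per the file headers. Its positive values stand for higher levels in knockouts.

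Symbols were paired with 52073 of 56980 identifiers. Counts were filtered with filterByExpr, scaled by TMM and tested by the edgeR quasi-likelihood method (version 4.0.16, R 4.3.3, robust fit, genotype as the only term, two-sided), with Benjamini-Hochberg adjustment over all 17901 genes tested and a threshold of 0.05. The script was tested on simulated data. Alternatives used RLE and upper-quartile scaling, no filter, 1 CPM in 3 samples, DESeq2 1.42.0, limma voom 3.58.1 with a shared spread or one per genotype, the sample number as a block, each library left out, an adjusted p of 0.1, and a minimum log2 change of 1. CPM per kb used GENCODE M21 exon lengths (GRCm38). Counting intervals and floors cover counting error only.

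Members and lists were chosen with earlier results of these data known. The rule for named genes took every member with an adjusted p below 0.05, those with the smallest p up to 20, and in each family the highest mean CPM and the smallest p, 35 genes in all. The other members are named so that each is accounted for, and were chosen with their values seen, as were overlapping genes and single markers.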

Additional observations from a re-analysis of the deposited data

How the results depend on the processing

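RLE and upper-quartile scaling and a minimum log2 change of 1 called the same 6 members as reported. No filter called 4 members (5.8% where 1.28% of all genes were called), 0 of them higher. It ended the calls of Sema4g and Robo2, both with edgeR adjusted p = 0.0542. DESeq2 called 27 members, 5 higher and 22 lower, and an adjusted p below 0.1 by edgeR gave 21, 3 and 18. A filter of 1 CPM in 3 samples and limma voom with a spread per genotype each called 7, adding Plxna2. limma voom ended only the call of Robo2, with an adjusted p of 0.0541. Leaving out 1 library gave 0 to 19 members called, 0 to 2 higher and 0 to 17 lower. Of the other genes of axon guidance, DESeq2 called 23, all 23 lower (33.8% where it called 14.4% of all genes lower). For these genes an edgeR adjusted p below 0.1 gave 19 in either direction, or 27.9% where it gave 17.4% of all genes, and all 19 were lower. In either direction it gave 33.3% of members. At this threshold 28.6% of members were lower, and the share of all genes that were lower was not computed. Leaving out 1 library gave 0 to 15 of the other genes, with 0 to 1 higher and 0 to 15 lower. The most were called without control 3, 22.1% of those tested where 17.2% of all genes were called. The number of genes called over the whole table was 771 as reported and from 0 (replicate block, or knockout 2 or 3 left out) to 4642 (DESeq2), and the cause was not tested.

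With the sample number as a replicate block, 0 members and 0 other genes were called, with 22 and 19 at an unadjusted p below 0.05, or 34.9% and 27.9% where 22.5% of all genes were, and a smallest edgeR adjusted p among members of 0.117. Same-numbered samples shared only a number: their deviations from the group means correlated at 0.0176, 0.000120 and 0.0507, and control 2 correlated best with knockout 1 (0.0533).

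The log2 fold change of Sema3c (-0.01) was 0.03 with no filter, 1.02 with limma voom under either spread, 1.13 with the replicate block, and between -0.54 and 2.07 with 1 library left out. That of Epha2 (-0.91) was 0.01 with limma voom under either spread and between -1.44 and 0.52 with 1 library left out, and that of Efna1 (0.36) lay between -0.17 and 0.91. None of these 3 genes passed the edgeR test under any of these settings, and the cause of the sign changes was not tested. The other 32 named members kept their direction under every setting run.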
